A study of Danio rerio with 12 samples.

Results

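The genes described here lie on alternate haplotype contigs of the zebrafish (Danio rerio) genome. They are the genes whose deposited chromosome name carries the mark ALT and whose mean level over the 12 libraries was at least 1 CPM (counts per 1e6 counts of the library), without names that start with mhc, ftr, btr or trim. Of 32349 genes in the deposited tables, 3569 lay on 824 such contigs and 2862 of these reached the threshold. These 2862 genes, called alternate genes below, sat on 768 contigs that belong to 25 chromosomes. A contig held a median of 3 and at most 20 of them, and 166 contigs held 1. The mean level chose the genes, so it is described without a test.

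A reference genome gives 1 primary sequence for each chromosome. Where sequenced haplotypes of a region differ, an assembly can also hold alternate contigs, which carry another version of that region with its own copies of the genes. Zebrafish laboratory strains carry much sequence variation between and within strains, so a larva can match the primary version in 1 region and the alternate version in the next. A read that matches both versions can be assigned to either copy. The sources used here give neither the treatment of such reads nor the genome build. A level on an alternate contig is therefore a level of assigned reads.

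The libraries came from pools of 25 whole larvae at 3 days post fertilization. The groups were Tg(ifih1_mut) larvae (here ifih1mut) stimulated with Poly I:C, control larvae stimulated with Poly I:C, unstimulated ifih1mut larvae and unstimulated control larvae, with 3 libraries each. Ifih1 is a cytoplasmic sensor of double-stranded RNA, and poly I:C is a synthetic double-stranded RNA. The sources used here give neither the promoter and the change carried by the transgene, nor the strain, nor how much poly I:C was given, how and for how long. Whether the pools of a group are separate clutches is not on the labels, so p-values cover the spread between pools. In whole larvae, fewer cells of a type and less RNA per cell cannot be told apart.

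Library totals lay between 31876869 and 100839015 counts, of which the alternate genes took 5.53% to 6.03%. The level of ifih1 was 17.5 to 33.3 CPM in stimulated ifih1mut larvae against 1.92 to 2.26 CPM in stimulated control larvae, and 11.1 to 17.1 CPM in unstimulated ifih1mut larvae against 1.98 to 2.73 CPM in unstimulated control larvae. The file columns number the libraries from 72 to 83 in runs of 3 per group. The libraries with the lowest, middle and highest number of each group are called set 1, set 2 and set 3, so that each set holds 4 libraries, 1 of every group. The labels give these sets no meaning such as a day or a batch. Gene by gene deviations from the group means correlated at 0.281 to 0.784 between libraries of a set and at -0.597 to 0.179 between libraries of different sets, and 12 of 12 libraries were closest to their own set. The deviations of the 3 libraries of a group sum to 0 by construction, which lowers the correlations between different sets. Marker sums of several tissues also moved with the sets. The erythrocyte markers (3 of 4 listed symbols matched, 2 of them above 0 in every library) summed to 98.7 to 584 CPM in set 1, against 847 to 1413 CPM in set 2 and 910 to 2251 CPM in set 3. The epidermis markers (4 of 4 matched and above 0 in every library) summed to 3161 to 3822 CPM in set 1, against 5227 to 6263 CPM in set 2 and 4411 to 5299 CPM in set 3. Photoreceptor markers summed to 1164 to 1574 CPM in set 1, against 871 to 1163 CPM in set 2 and 590 to 1210 CPM in set 3. By edgeR, 4 of 4 photoreceptor, 4 of 6 muscle, 3 of 4 liver, 2 of 4 neuron and glia, 2 of 4 pancreas and 1 of 4 neutrophil marker genes differed between sets. So did 2 of 3 erythrocyte and 2 of 4 epidermis marker genes, beside 23.0% of all genes. The sums of photoreceptor markers overlapped between set 1 and set 3 but not between set 1 and set 2. Those of muscle, liver, neuron and glia, pancreas and neutrophil markers overlapped between set 1 and at least 1 other set. The sums of lens and macrophage markers overlapped between set 1 and both other sets. The part of these marker differences in the results by set was not tested.

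None of the 2862 alternate genes has a gene symbol in the deposited tables. The authors' tables match 2651 of them to a Swiss-Prot protein, and they are named below by that protein's gene with the number of their identifier. Of these, 4 match trim genes by protein (TRIM8, TRIM47, Trim25 and trim13) and stay in, since the rule reads symbols only. A same-named gene on the primary chromosome within 200 kb was found for 1854 alternate genes, 64.8% of the 2862. A primary name with an added a or b, such as mylpfa for MYLPF, was taken as the same name. Whether the genes of a pair are versions of the same gene was not tested, and the word copy below stands for this match by name. These pairs involve 1692 primary genes, and 1590 pairs overlap in position. Positions below are those of the deposited annotation.

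The alternate genes had a median of 6.39 CPM. Per kilobase of gene length the median level was 1.93 CPM, against 4.9 CPM for the 19843 primary genes at 1 CPM or more. The 6 highest levels belonged to matches of a type II keratin, MYLPF, apoa1, actba, pvalb2 and rpl10. Gene 4515, which matches a type II keratin, a filament protein of epithelia, lay at chr6:39298885-39303581 on contig CTG6_1_39. It averaged 6767 ± 685 CPM in stimulated ifih1mut, 7455 ± 883 CPM in stimulated control, 6204 ± 1248 CPM in unstimulated ifih1mut and 6295 ± 957 CPM in unstimulated control larvae (SD, n = 3 each), and its groups overlapped. Gene 3972, which matches MYLPF, the regulatory light chain of fast muscle myosin, averaged 2181 CPM per kilobase over the 12 libraries, against 0.129 CPM per kilobase for its primary namesake mylpfa. A similar excess was present for pvalb2 (gene 1867), a calcium-binding protein of muscle, with 1626 CPM per kilobase on the alternate contig against 1.82 on the primary chromosome. The ribosomal protein gene rpl32 (gene 3258) had 995 CPM per kilobase on the alternate contig against 0.0155 on the primary chromosome. For apoa1 (gene 4196), the main protein of high-density lipoprotein, the alternate copy had 1354 and the primary copy 424 CPM per kilobase.

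The share of a pair's counts that fell on the alternate copy ran from none to all. The median over the 1854 pairs was 53.6% to 55.3% in every library, and 53.6% when counts were taken per length. The mean share was under 10% in 99 pairs, between 10% and 90% in 1385 pairs and 90% or more in 370 pairs. In 392 pairs the primary copy averaged under 1 CPM. The genes at the threshold differ little from each other. Just above it were RPL13A (gene 2514) at 1.01 CPM, ST8SIA5 (gene 3485) at 1.00 CPM and MSI2 (gene 1582) at 1.00 CPM. Just below it were genes 5107, 3495 (lmod3) and 4429 (NTN1) at 0.999, 0.998 and 0.996 CPM.

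Between the groups, few alternate genes differed. Those that did were mostly higher in stimulated ifih1mut larvae. With poly I:C, 18 of 2862 alternate genes differed between ifih1mut and control larvae (edgeR quasi-likelihood test, Benjamini-Hochberg adjusted p under 0.05 over 26508 genes). Of these, 17 were higher and 1 was lower in ifih1mut larvae. This is 0.629% of the alternate genes, near the background of 0.600% of all genes (0.589% higher and 0.0113% lower). Stimulated against unstimulated ifih1mut larvae differed in 20 alternate genes, 19 higher and 1 lower, or 0.699% against a background of 0.690% (0.683% higher and 0.00754% lower). The median log2 fold change of all alternate genes was -0.03 for ifih1mut over control with poly I:C, against -0.00 for all genes tested, and 0.01 for poly I:C in ifih1mut larvae, against -0.01 for all genes tested.
The threshold itself adds to these counts. Without the stimulated ifih1mut libraries, 18 alternate genes would average under 1 CPM, and these entered because they were high there. They make up 9 of the 18 calls with poly I:C and 10 of the 20 calls for poly I:C in ifih1mut larvae. Among them are the matches of GVINP1, mov10b.2, SAMD9L and rnf213b and genes 2255, 2284, 2316, 2712, 2719 and 3083, whose levels are described below without a test. The other alternate genes were called in 9 and 10 cases, 0.316% and 0.352% of them. Without the stimulated control library of set 1 or set 2, 10 and 9 alternate genes were called between stimulated ifih1mut and stimulated control larvae. Without the unstimulated ifih1mut library of set 2 or set 3, 12 were called each time for poly I:C in ifih1mut larvae. Backgrounds are not given for the counts without a library.

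Unstimulated ifih1mut and control larvae differed in 0 alternate genes by edgeR and by DESeq2, against a background of 0.00377% of all genes, while 23 alternate genes had an unadjusted p under 0.05. Stimulated and unstimulated control larvae also differed in 0 by edgeR and by DESeq2, with 63 at an unadjusted p under 0.05 and a background of 0%. With library set as a block, DESeq2 called 1 and 6, for which no background is given here. For ifih1mut over control with poly I:C, 27 of 2862 alternate genes had an adjusted p under 0.05 in the authors' deposited table. Of these 21 were higher and 6 lower, and 261 of 31293 listed genes in all were at that level. For poly I:C in control larvae the authors' deposited table held 2 of 2862 alternate genes at that level (7 of 31617 genes in all). For unstimulated ifih1mut over control it held 0 of 2861 (5 of 31893 genes in all).

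Gene 3844 at chr3:24649750-24660794 on contig CTG3_1_17 matches GVINP1, named in Swiss-Prot as an interferon-induced very large GTPase. It had 24.4, 11.8 and 42.3 CPM in stimulated ifih1mut larvae, against 0.587, 0.27 and 0.331 CPM in stimulated control larvae. Unstimulated ifih1mut larvae had 0.316, 0.138 and 0.229 CPM and unstimulated control larvae had 0.363, 0.115 and 0.378 CPM. All 3 stimulated ifih1mut libraries lay above the other 9. Without the stimulated ifih1mut libraries the gene averaged 0.304 CPM, so it reached the threshold through that group alone.

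A pair of neighbouring genes on contig CTG8_1_12 of chromosome 8 match mov10b.1 and mov10b.2, relatives of the mammalian RNA helicase MOV10, which acts on viral and retroelement RNA. Gene 4861 (mov10b.1) had 63.5, 45.3 and 138 CPM in stimulated ifih1mut larvae, against 8.9, 8.13 and 10.9 CPM in stimulated control larvae, a log2 fold change of 3.14 (SE 0.35, edgeR adjusted p = 0.0018). Gene 4860 (mov10b.2) had 10.7, 9.63 and 31.7 CPM against 0.433, 0.72 and 0.994 CPM in the same groups. It averaged 0.552 CPM without the stimulated ifih1mut libraries and entered through them alone. In both genes the 3 stimulated ifih1mut libraries lay above the other 9. Between 92.8% and 99.7% of the mov10b.1 counts of a library fell on the alternate copy, so the primary gene of that name carried little of the signal.

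Another pair on 1 contig, CTG10_1_20 of chromosome 10, match PARP14, a mono-ADP-ribosyltransferase that mammals induce with interferon. Gene 1526 had 8.82, 8.22 and 11.7 CPM in stimulated ifih1mut larvae, against 1.67, 1.59 and 1.33 CPM in stimulated control larvae. Gene 1524 had 38.6, 15.9 and 33.3 CPM against 3.4, 1.62 and 2.26 CPM in the same groups. Gene 1526 had a log2 fold change of 2.64 (SE 0.30, adjusted p = 0.0019 by edgeR), and gene 1524 had 3.59 (SE 0.43, adjusted p = 0.0023 by edgeR). Neither had a same-named primary gene within reach, and the groups did not overlap in either.

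Gene 3257 on contig CTG22_1_24 matches SAMD9L, an antiviral protein that restrains translation in mammals, and had 9.68, 5.9 and 17.3 CPM in stimulated ifih1mut larvae against 1.17, 0.84 and 1.08 CPM in stimulated control larvae. Its mean without the stimulated ifih1mut libraries was 0.835 CPM, under the threshold.

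For rnf213b, a large ubiquitin ligase, the copies could be set side by side. The alternate copy (gene 1849) had 4.71, 3.82 and 13.1 CPM in stimulated ifih1mut larvae, against 0.124, 0.09 and 0.392 CPM in stimulated control larvae. The primary copy had 14.1, 14 and 35.9 CPM against 0.464, 0.33 and 1.14 CPM in the same groups. The alternate copy averaged 0.155 CPM without the stimulated ifih1mut libraries and is given without a test. The primary copy had a log2 fold change of 5.04 (SE 0.54, adjusted p = 0.0014 by edgeR). For Trim25, a ubiquitin ligase of RNA sensing in mammals, the alternate copy (gene 4412) passed at a log2 fold change of 2.18 (SE 0.37, edgeR adjusted p = 0.024), while the primary copy, with 1.98 (SE 0.52, edgeR adjusted p = 0.27), did not. The difference between the copies was not tested. The call of the alternate copy was lost without any 1 of 5 libraries, which were the stimulated ifih1mut libraries of sets 1 and 3 and the 3 stimulated control libraries.

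The only alternate gene called lower with poly I:C matches Rab3c, a small GTPase of vesicle release (gene 4954, contig CTG8_2_1). It had 2.24, 1.79 and 2.17 CPM in stimulated ifih1mut larvae, against 4.54, 7.41 and 5.39 CPM in stimulated control larvae, a log2 fold change of -1.48 (SE 0.25, edgeR adjusted p = 0.02). This call was lost without any 1 of the 3 stimulated ifih1mut libraries and without the stimulated control library of set 2 or set 3. Unstimulated larvae of both genotypes, at 2.05 to 3.3 CPM, overlapped with the stimulated ifih1mut larvae. In the comparison of stimulated with unstimulated ifih1mut larvae the gene called lower matches Svep1, an extracellular matrix protein (gene 3203). It had 60.7, 64.3 and 67.7 CPM in stimulated and 91.2, 113 and 84.4 CPM in unstimulated ifih1mut larvae, a log2 fold change of -0.58 (SE 0.11, edgeR adjusted p = 0.031). The call was lost when any 1 of 8 of the 12 libraries was left out, namely the 6 stimulated libraries and the unstimulated ifih1mut libraries of sets 1 and 2.

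Of the 21 alternate genes called in any group comparison, 8 match no Swiss-Prot protein. Gene 2255 had 1118, 275 and 1880 counts in stimulated ifih1mut larvae against 1, 1 and 9 counts in stimulated control larvae. Gene 2712 had 782, 279 and 2132 counts against 1, 2 and 10 counts in the same groups. Gene 2316 had 102, 107 and 537 counts against 0, 1 and 4 counts in the same groups, and 0 counts in all 6 unstimulated libraries. These genes were thus close to undetected outside the stimulated ifih1mut libraries. Genes 2255 and 2316 overlap in position on chromosome 15 but belong to different contigs, CTG15_1_12 and CTG15_2_2, so reads may have been divided between them. Genes 2712, 2713 and 2719 are neighbours on contig CTG18_1_3. Gene 2713 matches the phosphatase ptpdc1, with 47.4, 56.8 and 140 CPM in stimulated ifih1mut larvae against 11.7, 15.8 and 21.1 CPM in stimulated control larvae.

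**Figure D1:**
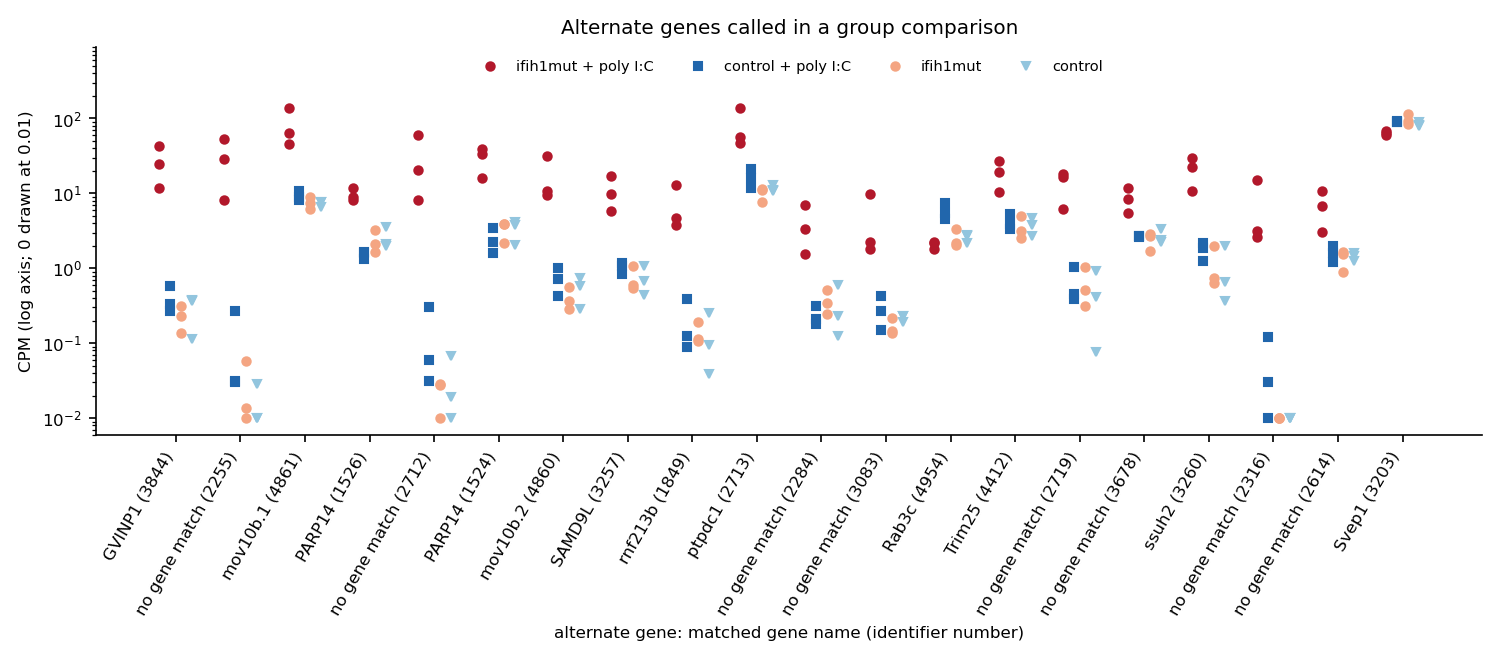
CPM (log axis) of 20 of the 21 alternate genes called in a group comparison, 1 point per library, with the groups in the order stimulated ifih1mut, stimulated control, unstimulated ifih1mut and unstimulated control. In 18 genes the 3 stimulated ifih1mut libraries lie above the other 9 libraries, and in 1 (Svep1, gene 3203) below them. The genes were chosen by calls that use the stimulated ifih1mut libraries, which favours such a separation. Of the genes shown, 10 reached the threshold through those libraries alone.

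The effect of poly I:C differed between the genotypes in 5 alternate genes, 0.175% against a background of 0.155%. The comparison shares its libraries with those above. The genes were mov10b.1 (log2 difference of effects 3.08, SE 0.48), the 2 PARP14 matches, gene 1526 (2.77, SE 0.41) and gene 1524 (3.61, SE 0.57), and GVINP1 and mov10b.2, all larger in ifih1mut larvae. The last 2 entered through the stimulated ifih1mut libraries alone, which favours this direction, and are given without a test. The share of 0.175% includes them. The edgeR adjusted p of mov10b.1 and the PARP14 matches lay between 0.031 and 0.039. Leaving out the stimulated ifih1mut library of set 1 or set 3 left 3 calls, leaving out the stimulated control library of set 3 left 1, and leaving out any other library but the stimulated ifih1mut library of set 2 (7 calls) left 0. With the library sets as a block the count was 13 (background 0.298%), and the comparisons above gave 23 (background 0.883%) and 25 (background 1.04%). Without set 1, set 2 or set 3, the counts for ifih1mut over control with poly I:C were 1, 0 and 6. For poly I:C in ifih1mut larvae they were 13, 6 and 7, and for the difference of effects 0 each, with 2 libraries per group left. Backgrounds are not given for the counts without a set.

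Averaged over both treatments, in the fit with library set, 10 alternate genes differed between ifih1mut and control larvae (background 0.275%), 9 higher and 1 lower. Without set in the fit the count was 3 (background 0.121%). The higher ones were 9 of the genes called with poly I:C, among them mov10b.1 and both PARP14 matches, and 4 of the 9 had entered through the stimulated ifih1mut libraries alone. The lower one matches MTHFD1, an enzyme of folate metabolism (gene 3079). It had 13.8, 10.5 and 10.2 CPM in stimulated ifih1mut larvae against 23.2, 21.8 and 17.2 CPM in stimulated control larvae, and 11.5, 7.01 and 13.8 CPM in unstimulated ifih1mut larvae against 18.4, 19 and 25.2 CPM in unstimulated control larvae. All 6 ifih1mut libraries lay below all 6 control libraries, with a log2 fold change of -0.92 (SE 0.15, edgeR adjusted p = 0.046). MTHFD1 was not called without set in the fit (edgeR adjusted p = 0.1), and this comparison was chosen after seeing the data. The primary namesake mthfd1a had 0.00193 CPM on average, so nearly all counts of the pair were on the alternate copy.

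The library sets differed far more. In the fit with group and set, 1119 of 2862 alternate genes (39.1%) differed between the sets, against a background of 23.0% of all genes and 21.8% of the primary genes at 1 CPM or more. The primary namesakes of the paired alternate genes were close to the alternate genes, with 575 of 1478 (38.9%) called between the sets. Set 1 differed from sets 2 and 3 in 1008 alternate genes (35.2%), 508 higher and 500 lower in set 1. The background was 16.6%, with 9.0% higher and 7.61% lower, and the primary genes at 1 CPM or more were called in 13.9% of cases. The median absolute log2 difference was 0.30 in alternate genes against 0.12 in those primary genes. Set 3 differed from set 2 in 251 alternate genes (8.77%), 118 higher and 133 lower in set 3, close to the background of 8.46%. For this contrast the primary genes at 1 CPM or more were called in 9.61% of cases. The 251 fell to 84 and 107 without the unstimulated ifih1mut library of set 2 and of set 3, and to 90 and 137 without the unstimulated control library of set 2 and of set 3.

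Part of the count comes through the threshold, since 86 alternate genes would average under 1 CPM without set 1, and 73 of these were called higher in set 1. Among the other 2776 alternate genes, 935 (33.7%) were called. The primary namesakes of the paired alternate genes were called in 497 of 1478 cases (33.6%), and the remaining primary genes at 1 CPM or more in 2295 of 18501 cases (12.4%). Alternate genes without a pair were called in 323 of 1008 cases (32%).

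All 12 alternate genes named for the smallest adjusted p between sets were higher in set 1. Of these, 8 averaged under 1 CPM in sets 2 and 3 and reached the threshold through set 1 alone, which fixes their direction. They are the matches of suz12b, nupr1, AP1M1, ufsp2, yap1, gjc1, tmem106b and Frmd4b, and their levels are given without a test. The other 4 are gene 2647, pik3r3b, eif4g2b and gcdha. Gene 2647 at chr18:17397705-17417038 on contig CTG18_1_18 matches a fatty acyl-CoA hydrolase and has no pair. It had 183 to 351 CPM in set 1 against 3.4 to 6.19 CPM in sets 2 and 3, a log2 difference of 6.05 (SE 0.12, edgeR adjusted p = 1.4e-09). The 4 groups were all represented among the high libraries, since each set holds 1 library of each group. Gene 4492, which matches AP1M1, a subunit of a clathrin adaptor, had 5 to 9.46 CPM in set 1 against 0.0964 to 0.21 CPM in sets 2 and 3. Gene 4388, which matches gjc1, a gap junction protein, had 6.68 to 11.4 CPM in set 1 against 0.0602 to 0.193 CPM in sets 2 and 3. Neither overlapped between set 1 and the other sets.

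A primary namesake was present for 9 of the 12, of which 6 had entered through set 1 alone, and in these the copies moved in opposite directions or the primary copy did not pass the test. Among them was suz12b, a subunit of the Polycomb complex that methylates histone H3. Its alternate copy (gene 4414, chr6:18531748-18543033, contig CTG6_1_15) had 20.2, 20.6, 18 and 18.5 CPM in set 1, against 0.535 to 0.882 CPM in sets 2 and 3. Its primary copy had 11.5 to 13.2 CPM in set 1 against 22.7 to 27.4 CPM in sets 2 and 3. The primary copy, which the threshold did not choose, had a log2 difference of -0.99 (SE 0.07, edgeR adjusted p = 6.4e-06). The summed counts of both had a log2 difference of 0.29, given without a test because the sum holds the alternate copy, which entered through set 1 alone. The alternate copy thus took 60.5% to 61.6% of the pair's counts in set 1, against 2.17% to 3.14% in sets 2 and 3. Exact binomial intervals (95%), which cover counting error only, reached at most 3.03 points to either side of a suz12b share.

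The same pattern held for ufsp2, a protease of the ubiquitin-like modifier UFM1. Its alternate copy (gene 2852, contig CTG1_1_12) took 45.9% to 48% of the pair's counts in set 1, against 0.516% to 1.26% in sets 2 and 3. The primary copy had 15.6 to 16.4 CPM in set 1 against 28.2 to 37.2 CPM in sets 2 and 3. The summed counts had a log2 difference of -0.11, given without a test. For nupr1, a stress-induced nuclear protein, the alternate copy (gene 3941) had 22.2 to 28.5 CPM in set 1, against 6 counts of the pair's 40207 in the 8 libraries of sets 2 and 3. The summed nupr1 counts had a log2 difference of -0.08, also given without a test.

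The transcriptional coactivator yap1 (gene 2741) had 19.5% to 26.3% of its counts on the alternate copy in set 1 against 0.32% to 1.05% in sets 2 and 3. The translation factor eif4g2b (gene 2643) had 27% to 28.8% in set 1 against 2.63% to 3.76% in sets 2 and 3. The mitochondrial enzyme gcdha (gene 4518) had 39.8% to 44% in set 1 against 2.36% to 3.57% in sets 2 and 3. The primary copies of yap1, eif4g2b and gcdha were lower in set 1 by log2 differences of -0.53, -0.57 and -0.87 (edgeR adjusted p at most 0.00024). Over the 9 pairs the log2 differences of the summed counts ran between -0.14 and 0.29. Of these pairs 6, suz12b among them, entered through set 1 alone, so their sums hold a copy chosen for being high there. Those sums are given without a test. The sums of the remaining pairs, pik3r3b, eif4g2b and gcdha, did not pass (edgeR adjusted p 0.42, 0.085 and 0.15).

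**Figure D2:**
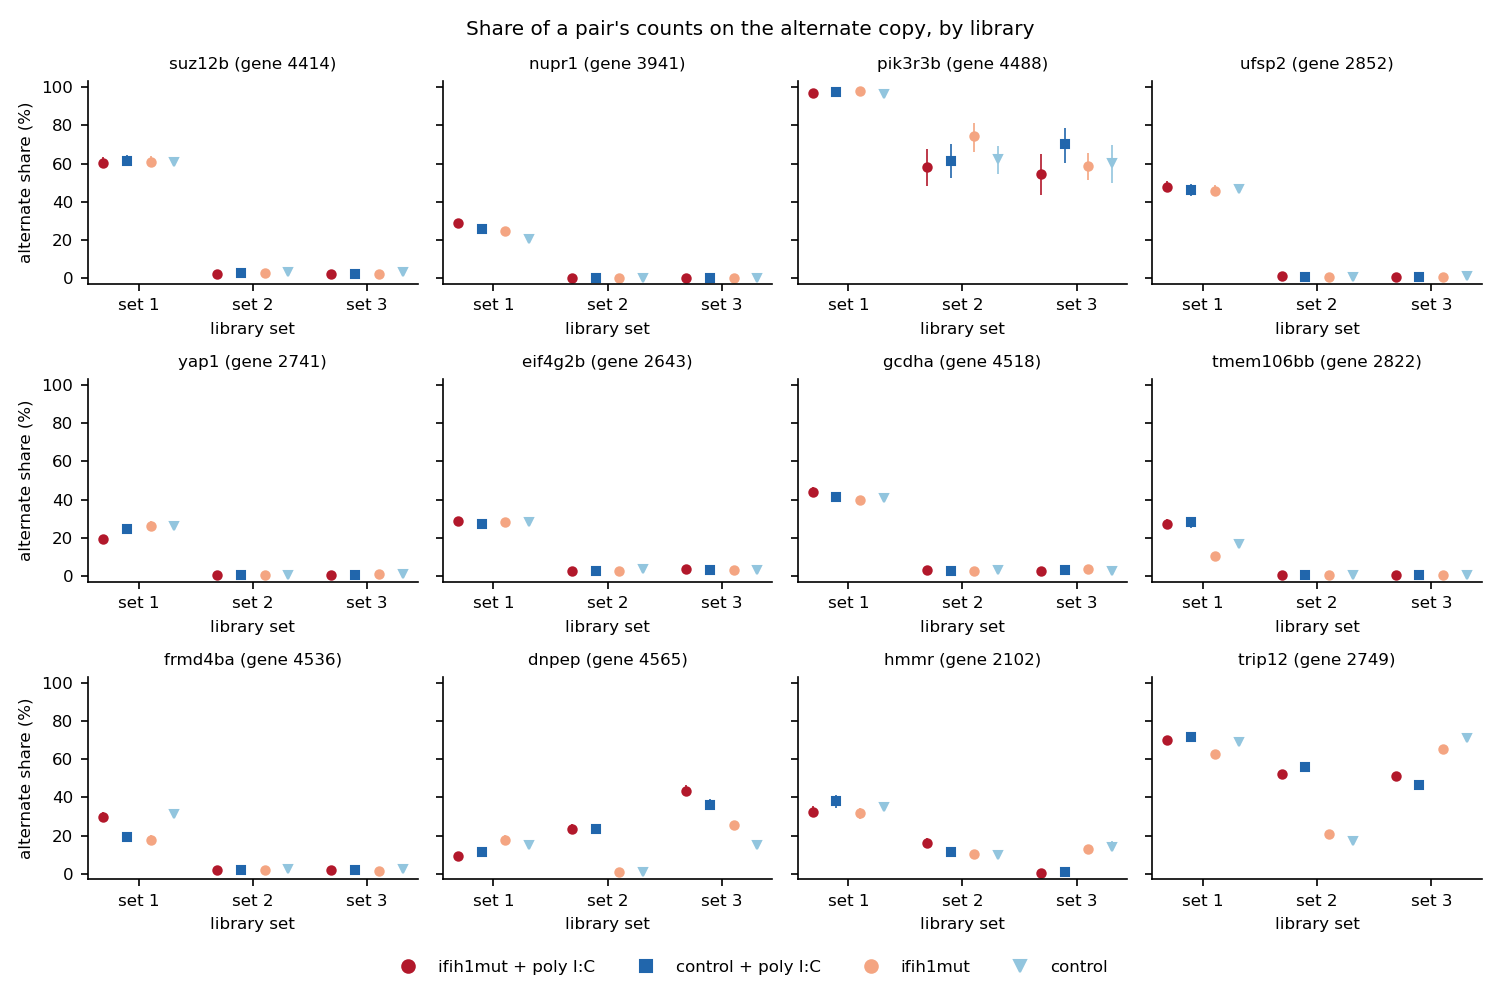
Share of a pair's counts on the alternate copy (percent) in each of the 12 libraries, by library set, with 95% exact binomial intervals and 1 colour per group. The top 9 panels are the pairs named for their difference between sets, where the 4 set 1 libraries lie above the others (suz12b at 60.5% to 61.6% against 2.17% to 3.14%), and the last 3 panels (dnpep, hmmr and trip12) are pairs whose share differed with poly I:C within sets 2 or 3.

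Within a library, the ratio of the alternate to the primary copy does not depend on depth. The log2 ratio differed between the sets in 709 of 1854 pairs (38.2%; limma, adjusted p under 0.05, background 36.2% of all 2191 pairs tested), and set 1 differed from sets 2 and 3 in 754 (40.7%; background 38.9%). The 2191 pairs include the 1854, so a background given for pairs cannot lie far from the value beside it. The ratio was higher in set 1 in 374 pairs and lower in 380 (background 20.6% and 18.3%). Set 3 differed from set 2 in 0 pairs by limma (background 0%), with 294 at an unadjusted p under 0.05. No other tool was run on the ratios. Leaving aside the 57 pairs that entered through set 1 alone, 704 of 1797 (39.2%) had a ratio that differed between set 1 and the others. In 568 pairs (30.6%) the 4 shares of set 1 did not overlap with those of the other sets (background 28.3% of all pairs). The same was true of set 2 in 37 pairs (2%, background 1.83%) and of set 3 in 72 pairs (3.88%, background 3.33%).

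In points of share, set 1 differed from sets 2 and 3 by a median of 4.94, and by more than 20 points in 282 pairs, 150 higher and 132 lower. Set 3 differed from set 2 by a median of 1.99 points and by more than 20 points in 16 pairs. The ifih1mut larvae differed from control larvae by a median of 1.09 points and by more than 20 points in 0 pairs. A copy that was nearly unused in some sets was used in others. The alternate share was above 20% in set 1 and under 5% in sets 2 and 3 in 17 pairs. It was under 5% in set 1 and above 20% in sets 2 and 3 in 6 pairs. The 17 include suz12b, nupr1 and ufsp2, whose alternate copies entered through set 1 alone. The 57 pairs that entered this way favour a higher share in set 1, so the directions were not compared. Backgrounds over all pairs tested are not given for the counts in points of share. The alternate share was under 80% in set 1 and above 95% in sets 2 and 3 in 16 pairs. It was above 95% in set 1 and under 80% in sets 2 and 3 in 5 pairs.

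The last 2 kinds can be shown by pairs chosen after their values were seen. For orc1, a subunit of the replication origin complex (gene 4585, chr6:33932680-33951000), the alternate share was 69.3% to 74% in set 1 against 98.7% to 99.2% in sets 2 and 3. For ccdc88aa, whose mammalian relative is an actin-binding protein (gene 4436), it was 75.7% to 79% in set 1 against 98.9% to 99.6% in sets 2 and 3. The primary copies of orc1 and ccdc88aa were the ones nearly absent from sets 2 and 3. For pik3r3b, a regulatory subunit of a phosphoinositide kinase (gene 4488), the alternate share was 96.5% to 97.8% in set 1 against 54.5% to 74.5% in sets 2 and 3.

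Across the 1613 pairs in which both copies and their sum could be fitted, the set 1 difference was smaller for the sum. The median absolute log2 difference was 0.321 for alternate copies, 0.271 for primary copies and 0.115 for summed counts. The copies differed in sign in 1107 pairs (68.6%), and across these pairs, which share libraries and reads, the log2 differences of the copies had a Pearson correlation of -0.358. Set 1 differed from sets 2 and 3 in 237 of 1692 summed genes (14%), close to the background of 13.2% among all summed genes, while the alternate copies were called in 685 of 1854 cases (36.9%). A number of pairs moved in their sum as well. For fan1, a DNA repair nuclease (gene 2693), the alternate copy entered through set 1 alone, so the sum is given without a test. The summed counts were higher in set 1 by a log2 difference of 2.25. The alternate shares were 83% to 97.8% in set 1 against 33.3% to 81.2% in sets 2 and 3. The primary copy of fan1 did not pass (log2 difference -0.11, SE 0.50, edgeR adjusted p = 0.92). For pid1, an adaptor protein of insulin signalling (gene 2759), the sum was higher in set 1 by 0.88 (SE 0.09, edgeR adjusted p = 0.00012), with shares of 72% to 76.8% in set 1 against 5.14% to 28.1% in sets 2 and 3.

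**Figure D3:**
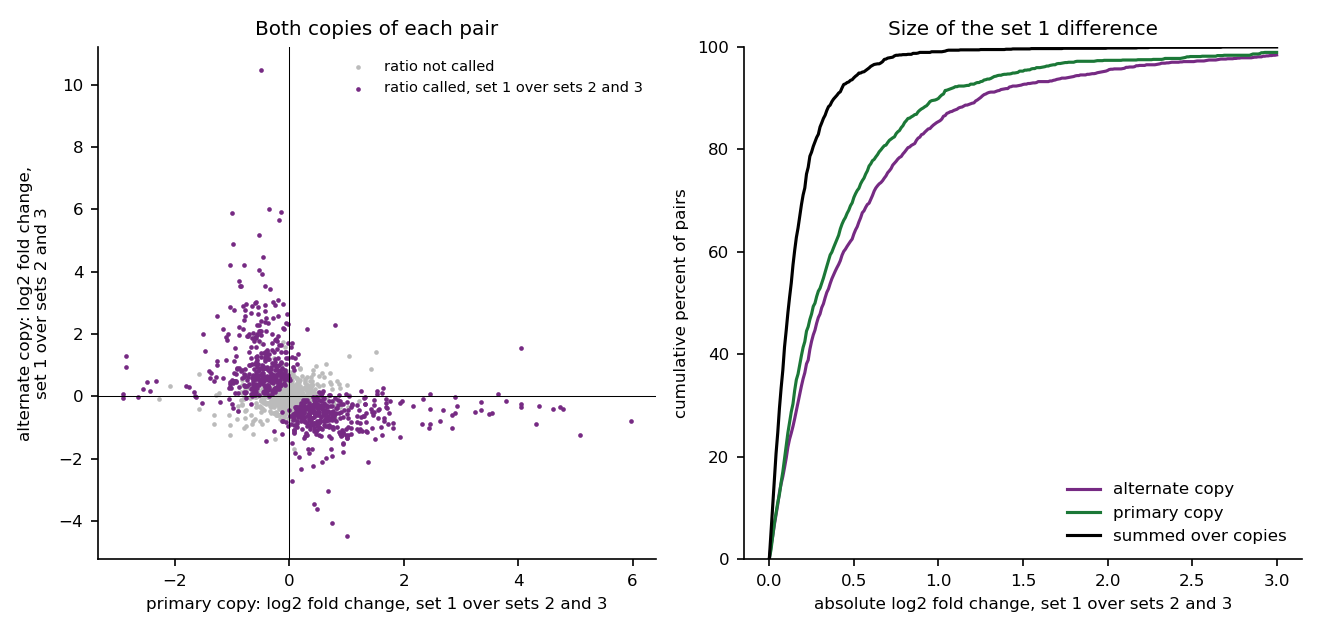
Left, log2 fold change of set 1 over sets 2 and 3 for the alternate copy (vertical axis) and the primary copy (horizontal axis) of 1613 pairs, with pairs called by ratio in colour. Right, cumulative percent of pairs by absolute log2 fold change for the alternate copy, the primary copy and their sum, whose curve is leftmost (median 0.115 against 0.321 and 0.271).

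The wide shares include pairs that fell in set 1. For vwa2, a matrix protein (gene 1819), the share was 16.1% to 36.1% in set 1 against 29.4% to 82.3% in sets 2 and 3. For tspan33b, a membrane protein (gene 2767), it was 33.3% to 50.9% in set 1 against 73.5% to 96.6% in sets 2 and 3. The cullin cul1a has 2 alternate genes, 3741 and 3805, with shares of 84.5% to 94.8% and 86.1% to 95.6% in set 1, against 20.7% to 40.5% and 26.8% to 55.9% in sets 2 and 3. Both are set against the same primary gene, so they are not independent.

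Between treatments and genotypes, no ratio was called in the fit with additive terms. Limma called 0 of 1854 for ifih1mut over control without poly I:C (40 at an unadjusted p under 0.05), 0 with poly I:C (75), 0 for poly I:C in control larvae (130), 0 for poly I:C in ifih1mut larvae (93) and 0 for the genotypes averaged over treatments (48), where the background was 0% too. The picture differed within sets. The root mean square difference of log2 ratios between libraries, over 1685 pairs with a mean of at least 200 summed counts, was 0.67 to 0.73 within set 1. Within set 2 it was 0.91 to 0.96 between libraries of different treatment and 0.66 between libraries of the same treatment and different genotype. Within set 3 it was 0.85 to 0.90 between treatments and 0.65 to 0.68 within a treatment. Across sets it was 1.43 to 1.57 between sets 1 and 2, 1.47 to 1.65 between sets 1 and 3, and 0.73 to 1.09 between sets 2 and 3.

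**Figure D4:**
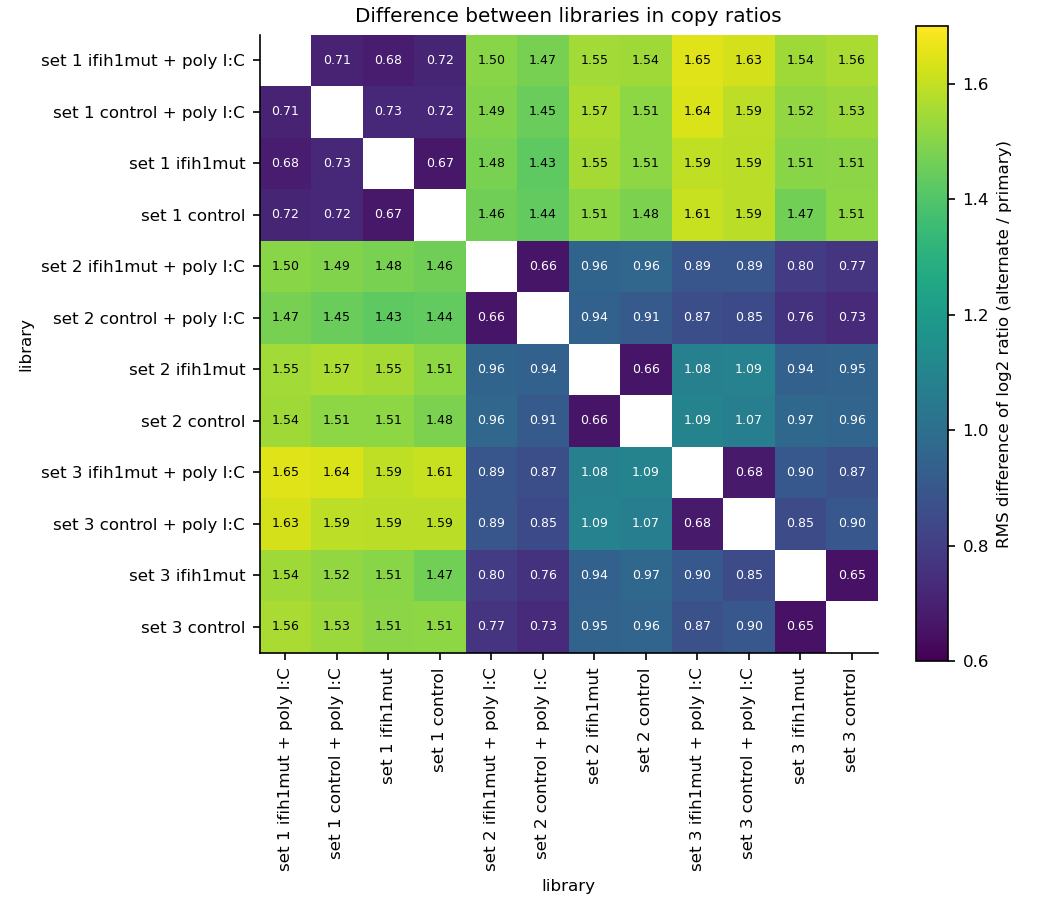
Root mean square difference of the log2 ratio of alternate to primary copy between each 2 of the 12 libraries, ordered by set and then by group. The 4 set 1 libraries form a block of 0.67 to 0.73 and stand 1.43 to 1.65 from the others, while sets 2 and 3 split by treatment.

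A fit with a poly I:C effect in each set, chosen after seeing the data, called a difference of that effect between sets in 118 pairs (6.36%; limma, background 5.71%). The effect was called in 0 pairs within set 1 (114 at an unadjusted p under 0.05, background 0%), in 149 within set 2 (68 higher and 81 lower with poly I:C, background 7.39%) and in 104 within set 3 (48 higher and 56 lower, background 5.16%), with 30 pairs called in both sets 2 and 3. Each of these counts rests on 2 stimulated and 2 unstimulated libraries per set, with the 2 genotypes as replicates. Within a set, poly I:C cannot be told apart from other differences between the stimulated and the unstimulated pools. Leaving out 1 library gave 15 to 49 pairs for the difference, whichever library it was. It gave 27 to 58 pairs within set 2 when the library was 1 of the 4 of set 2, and 2 to 11 within set 3 for the 4 of set 3. Within set 3 it also gave 55 without the unstimulated library of set 1 of either genotype and 43 without that of set 2. By edgeR on counts, 113 alternate genes (3.95%) had a poly I:C effect that differed between sets. The background was 1.84%, with 1.77% of the primary genes at 1 CPM or more. Of the primary namesakes, 68 of 1478 (4.6%) were called, so the alternate copies did not stand out from them. The same fit with a genotype effect in each set called 0 ratios (31 at an unadjusted p under 0.05, background 0%).

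Pairs chosen after their values were seen show how large these differences were. For dnpep, an aminopeptidase (gene 4565, chr6:13896142-13923616), the alternate share in set 2 was 23.3% in stimulated ifih1mut and 23.4% in stimulated control larvae, against 0.87% in unstimulated ifih1mut and 0.797% in unstimulated control larvae. In set 3 it was 43.6% and 36.2% with poly I:C in ifih1mut and control larvae, against 25.7% and 15.2% without. In set 1 it was 9.23% and 11.3% with poly I:C in ifih1mut and control larvae, against 17.6% and 15.2% without. The genotypes were close to each other in set 2 while the treatments were far apart.

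Its neighbour etv5b, a transcription factor on the same contig (gene 4568), had shares of 24.6% and 25.2% in stimulated ifih1mut and control larvae of set 2, against 0.887% and 1.48% in unstimulated ifih1mut and control larvae. For hmmr, a hyaluronan receptor (gene 2102), the difference was in set 3, with 0.427% and 0.81% in stimulated ifih1mut and control larvae against 13.1% and 14.2% in unstimulated ones. For trip12, a ubiquitin ligase (gene 2749), sets 2 and 3 went opposite ways. Set 2 had 52.1% and 56% in stimulated ifih1mut and control larvae against 21% and 17.4% in unstimulated ones, and set 3 had 51% and 46.4% in stimulated ifih1mut and control larvae against 65.2% and 71% in unstimulated ones. The median absolute difference of the share between stimulated and unstimulated libraries was 1.94 points in set 1, 2.94 in set 2 and 2.98 in set 3.

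Of 188 contigs with at least 4 pairs (973 pairs), 62 had the log2 differences of all pairs on 1 side of 0, 29 with all ratios higher and 33 with all lower in set 1. All pairs passed the test in 22 contigs and none in 44. Among the 110 contigs with at least 2 called pairs, 19 had called pairs in both directions. No background is given for these contig counts, and a few pairs can share a side without any set difference. The counts are therefore not read as an excess. Some contigs with all ratios higher, such as CTG6_1_15, hold pairs that entered through set 1 alone, which favours that direction.

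The contigs at the ends of this range were chosen by their values and are described without a test. On CTG6_1_15, which holds suz12b, the ratios of utp6, tefm, znf207b and rhbdl3 were also higher in set 1. For utp6, a factor of ribosome assembly, the share was 31.4% to 40.2% in set 1 against 0.186% to 2.17% in sets 2 and 3. The tefm shares overlapped, with 97.5% to 100% in set 1 against 82.4% to 98.4% in sets 2 and 3. At least suz12b and rhbdl3 entered through set 1 alone, which favours this direction. On CTG18_2_6 the 7 pairs swap70b, znf143b, tph2, tbc1d15, chtf8, tango6 and zc3h18 all had higher ratios in set 1. The share of tango6, a gene of secretory transport, was 37.4% to 49.4% in set 1 against 1.39% to 3.48% in sets 2 and 3. At the other end, on CTG21_1_14, the pairs arhgap42a, angptl5, pcf11, ccdc90b and alg8 had shares of 0.246% to 6.17% in set 1 against 16.8% to 48.8% in sets 2 and 3. On CTG6_2_12, the contig of orc1, the pairs gpbp1l1, akr1a1b, prpf38a and tie1 had 71.8% to 81.1% in set 1 against 95.8% to 99% in sets 2 and 3.

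By chromosome, the share of alternate genes that differed between sets ran from 19% on chromosome 11 to 69.5% on chromosome 18. For primary genes at 1 CPM or more it ran from 16.4% to 30.1%. The alternate genes exceeded the primary genes on 25 of 25 chromosomes, by as little as 19% against 18.6% on chromosome 11. These shares include the 86 alternate genes that reached the threshold through set 1 alone, of which 73 were called higher in set 1. This favours the alternate genes, and the chromosomes were not compared without them. The primary namesakes were not split by chromosome. Over all chromosomes 38.9% of them were called, against 39.1% of the alternate genes. On chromosome 18, 105 of 151 alternate genes were called between sets. The separate test of set 1 against the others gave 81 higher and 19 lower there. Chromosomes 24 and 22 followed with 62.5% and 53.7%. In the test of set 1 against the others, more genes were called lower than higher there (13 higher and 31 lower on chromosome 24, 14 higher and 34 lower on chromosome 22). On chromosome 6, with 106 of 204 called between sets (52%), the test of set 1 against the others gave even directions, at 49 higher and 48 lower. The 18 genes called between stimulated ifih1mut and stimulated control larvae were spread over 10 chromosomes, with at most 3 on any (chromosomes 8 and 18).

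**Figure D5:**
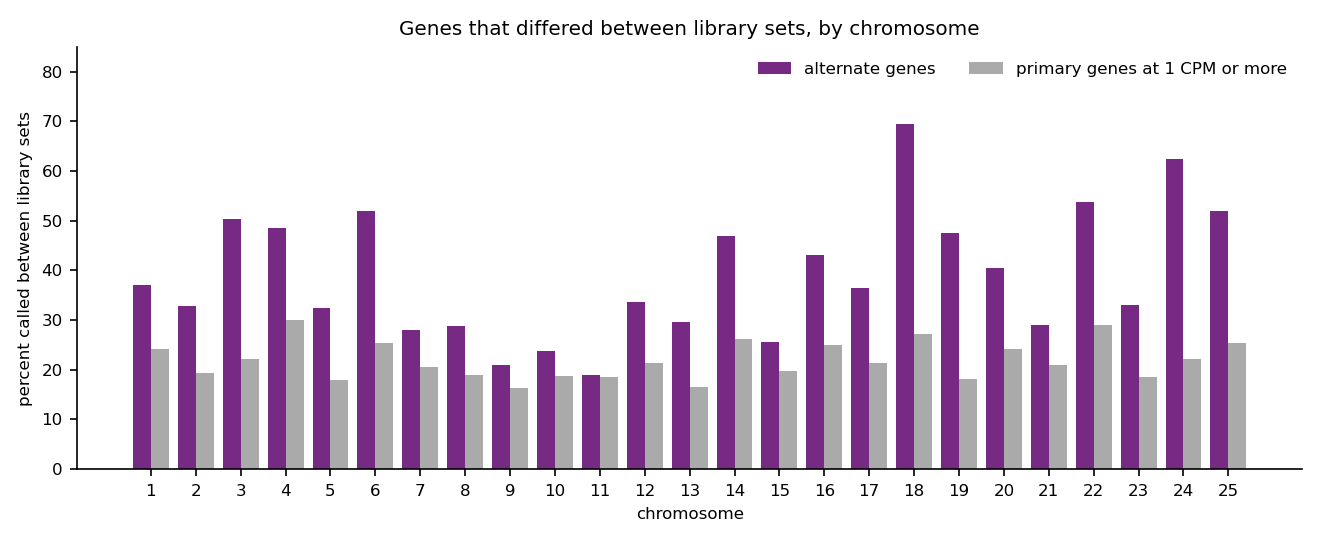
Percent of genes called between library sets on each chromosome, for alternate genes (left bar) and primary genes at 1 CPM or more (right bar). The alternate bar is the taller on 25 of 25 chromosomes and reaches 69.5% on chromosome 18, where the primary bar stands at 27.3%. Primary namesakes are not shown apart (38.9% called over all chromosomes, against 39.1% of alternate genes). The alternate bars include genes that reached the threshold through set 1 alone, which favours a taller alternate bar.

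Gene families are described by their calls, beside the background of 23.0% of all genes and 39.1% of the alternate genes called between sets. The direction of a family was not tested. Some family lists also hold genes whose names only resemble those of the family, as given below. Of 31 ribosomal protein genes, 9 were called between sets, and set 1 against the others gave 2 higher and 8 lower. Among the lower ones was rpl21 (gene 3581), at 88.4 to 116 CPM in set 1 against 180 to 359 CPM in sets 2 and 3, a log2 difference of -1.25 (SE 0.12, edgeR adjusted p = 4.4e-05). Its primary copy was higher in set 1 by 1.61 (SE 0.25, edgeR adjusted p = 0.0014), and the sum differed by -0.24 (SE 0.08, edgeR adjusted p = 0.088). Its share was 78.2% and 72.3% in stimulated ifih1mut and control larvae of set 2 against 94.8% and 93.7% in unstimulated ones. In set 3 it was 57.1% and 59.6% in stimulated ifih1mut and control larvae against 83.6% and 78.9% in unstimulated ones.

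Of 15 heat shock genes, 8 were called between sets, and set 1 against the others gave 4 higher and 5 lower. Among the lower ones was Hsp90b1, the chaperone of the endoplasmic reticulum (gene 4055), at 11.8 to 15.4 CPM in set 1 against 30 to 51.4 CPM in sets 2 and 3 (log2 difference -1.50, SE 0.08, edgeR adjusted p = 6.7e-07). Its alternate share was 3.73% to 5.07% in set 1 against 8.29% to 16.3% in sets 2 and 3, and the sum had a log2 difference of -0.08 (SE 0.06, edgeR adjusted p = 0.51). HSPA9, the mitochondrial chaperone (gene 2191), was lower by -0.84 (SE 0.08, edgeR adjusted p = 7.1e-05), while its primary copy was higher by 0.54 (SE 0.06, edgeR adjusted p = 0.00025). The HSPA9 sum differed by -0.00 (SE 0.07, edgeR adjusted p = 0.99). HSPA4 (gene 2211) was lower by -0.99 (SE 0.07, edgeR adjusted p = 4.6e-06), and its sum fell too, by -0.67 (SE 0.08, edgeR adjusted p = 0.00028). The primary copy of HSPA4 did not pass (0.13, SE 0.33, edgeR adjusted p = 0.85).

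Of 61 solute carrier genes, 22 were called between sets, and set 1 against the others gave 12 higher and 7 lower. Of 16 zinc finger genes 8 were called, of 10 collagen genes 4, of 13 cytochrome and conjugating enzyme genes 4, and of 6 protease genes 2. For the proteases, set 1 against the others gave 0 higher and 2 lower. In the lists for antigen processing, globins, complement and crystallins, of 3, 2, 2 and 3 genes, 1 each was called. The globin list consists of hbb, which was called, and Hbs1l, an HBS1-like protein. The complement list consists of Cfb, which was called, and c3orf70a, and the crystallin list includes crygna, which was called, and CRYL1. The Cfb match (gene 3150) averaged 0.991 CPM without set 1 and entered through set 1 alone, which favours its call. Of 4 genes listed as keratins, which include the keratinocyte-associated protein Krtcap3, edgeR called 0 (1 at an unadjusted p under 0.05) and DESeq2 called 1. Of 4 protocadherin genes edgeR and DESeq2 called 0, with 0 at an unadjusted p under 0.05. No histone gene was among the alternate genes. Of 4 genes matched to immune receptors and related GTPases, 3 were called between sets, with 2 higher in set 1. The Gimap8 match (gene 3916), which entered through set 1 alone, had 3.15 to 5.28 CPM in set 1 against 0 counts in 7 and 3 counts in 1 of the 8 libraries of sets 2 and 3.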

How the data were processed

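RNA-seq of 12 libraries was deposited as 3 comparison tables with 6 libraries in each. Per the file headers, they hold for each gene the raw read count by library, the authors' log2 fold change, p-value and adjusted p-value, and gene length, position, Swiss-Prot and Pfam matches. The sources used here do not give the aligner, the counter, its strand setting, the genome build or the authors' test. The deposited log2 fold changes and p-values were used only for a side-by-side count, and 36 columns of normalized values were not used.

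Joining on the identifier gave 32349 genes. Among 187002 repeated counts 0 differed, and 6372 missing values in 1484 genes were set to 0. The threshold of 1 CPM used plain library totals, while printed CPM use TMM-adjusted totals. Groups came from the titles. The columns carry library numbers but not the replicate numbers of the titles. Library sets were paired as blocks because every pair of libraries of a set deviated together, as given above.

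Genes were filtered with filterByExpr (minimum count 10, minimum total 15), which left 26508, all 2862 alternate genes among them. They were tested with edgeR 4.0.16 in R 4.3.3 (TMM, quasi-likelihood F-test, Benjamini-Hochberg adjusted p under 0.05 over all genes tested), with 8 residual degrees of freedom for groups and 6 with set. Ratios of alternate to primary counts were tested with limma 3.58.1 on the log2 scale (pseudocount 0.5, mean summed count of at least 10), which lessens differences of low counts. Since alternate genes have no symbols, pairs were made through the Swiss-Prot gene name, against a named gene on the same chromosome within 200 kb. An added a or b at the end of the primary gene's name was allowed. Reads shared by both copies make their single counts uncertain. The depth sets a floor of 3 counts below which a gene is not told from 0, and intervals cover counting error only.

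Alternatives were RLE size factors, DESeq2 1.42.0, fits on the compared groups alone, no filter or 1 CPM in at least 3 libraries, counts summed over same-named genes, thresholds of 0.5 and 2 CPM, a pseudocount of 5, a summed count of at least 50, the set as a block, and leaving out each library. Chosen after seeing the data were effects within sets, the genotype averaged over treatments, overlapping pairs only, leaving out each set, and DESeq2 with the block. The fits were tested on simulated counts. Alternate genes, lists and tests were chosen with earlier results of these data known. Named genes were the 6 highest levels, up to 10 called genes per group comparison, 12 for the sets, the 10 widest called shares, the 3 on each side of the threshold and up to 4 per family. Other named genes and contigs were chosen after their values were seen. The result for 1 called gene is not reported here.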

Additional observations from a re-analysis of the deposited data

Results flagged for a closer look

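In 5 alternate genes the poly I:C effect differed between ifih1mut and control larvae by a test of the difference itself, 0.175% against a background of 0.155% of all genes. The log2 difference of effects was 6.44 for the GVINP1 match (gene 3844), 2.77 and 3.61 for the PARP14 matches (genes 1526 and 1524), 5.00 for mov10b.2 (gene 4860) and 3.08 for mov10b.1 (gene 4861). Of the 5, the matches of GVINP1 (gene 3844) and mov10b.2 (gene 4860) reached the threshold through the stimulated ifih1mut libraries alone. This favours a larger effect in ifih1mut larvae, so their values are given without a test. The count of 5 and the share of 0.175% include these 2, so the share is not read as an excess over the background. The count of 5 became 0 to 7 when 1 library was left out. In 118 pairs (6.36%) the poly I:C effect on the ratio of alternate to primary copy differed between library sets, again by a test of the difference. The background was 5.71% of all 2191 pairs tested, which include the 1854 described here, so the 2 values cannot lie far apart. The count of 118 fell to 15 to 49 when any 1 library was left out. Within a set, poly I:C cannot be told apart from other differences between the stimulated and the unstimulated pools.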

How the results depend on the processing

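Counts of called alternate genes and ratios were compared over all alternatives. Shares over all genes are not given here beside the alternative counts, so no count is read as an excess among alternate genes. RLE size factors, no filter, 1 CPM in at least 3 libraries as the filter, and CPM thresholds of 0.5 and 2 moved no count by over 1.5 times. With library set as the replicate block, edgeR gave 0, 0, 23 and 25 calls for ifih1mut over control, poly I:C in control, ifih1mut over control with poly I:C and poly I:C in ifih1mut, and 13 for the difference of effects, against 5 without it. It changed no other count by that factor. DESeq2 gave 19 for the difference, and DESeq2 with the replicate block gave 1, 6, 42, 47 and 25 for the 5 comparisons in this order. With only the groups compared, the counts were 10 with poly I:C and 13 for poly I:C in ifih1mut. Without set 1, set 2 or set 3, ifih1mut over control with poly I:C gave 1, 0 and 6, poly I:C in ifih1mut 13, 6 and 7, and the difference 0 each. Counts summed over same-named genes lowered set 1 over the others to 579, or 577 with RLE size factors. Leaving out 1 library gave 0 to 0 for the first 2 comparisons, 9 to 19 with poly I:C, 12 to 20 for poly I:C in ifih1mut, 0 to 7 for the difference, 834 to 1093 between sets, 722 to 998 for set 1 and 84 to 252 for set 3 over set 2. For ratios it gave 578 to 698 between sets, 636 to 747 for set 1, 0 to 2 for set 3 over set 2 (2 without the unstimulated ifih1mut library of set 1, 1 without 3 others), 0 to 2 for poly I:C within set 1, 27 to 129 within set 2, 2 to 87 within set 3 and 15 to 49 for its difference between sets. The group comparisons of ratios and genotype by set stayed at 0 to 0. Among 1094 alternative values of 63 single genes and ratios, 142 fell short of the threshold that the reported value passed and 0 turned direction. The 63 include genes that reached 1 CPM through the stimulated ifih1mut libraries or set 1 alone, which favours their direction. The 0 is therefore not read as support for the directions. Calls with poly I:C for mov10b.1 and both PARP14 matches held without each library in turn. Where a count moved, the cause was not tested.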
